A study of Mus musculus with 6 samples.

Results

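The genes described here carry the signal from an activated receptor through Ras to the kinase ERK, together with Shoc2, a scaffold of that route. The list named 7 genes, Shoc2, Nras, Hras, Braf, Sos1, Map2k1 and Mapk3, and every probe set that the array annotation gives to exactly 1 of them was taken. In this way 20 probe sets of 5 genes were found, among 18193 genes with a named probe set: 2 for Shoc2, 3 for Nras, 9 for Braf, 5 for Sos1 and 1 for Map2k1. Hras and Mapk3 had 0 named probe sets and are not analysed here.

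The RNA came from mouse hippocampus and was read on 6 Affymetrix arrays, on which a gene is measured by 1 or more probe sets. HuD is an RNA-binding protein of neurons, encoded by Elavl4, that recognises U-rich and AU-rich stretches in messenger RNAs. On 3 arrays was RNA recovered with anti-myc antibody on protein-G beads from hippocampus carrying transgenic HuD (HuD pulldown), on 2 was RNA held by beads with non-immune IgG (IgG pulldown, the background control), and on 1 was total RNA before any pulldown (input). The labels give no strain, age, sex or promoter of the transgene, and do not say whether the control and input RNA came from transgenic mice. HuD in these pulldowns was thus a tagged transgenic protein, and a higher signal is a share of the recovered RNA relative to the other group, not an amount in the tissue. Separate animals or preparations are not stated for the arrays, and all p-values therefore describe array-to-array spread, possibly no more than technical.

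In this pathway a growth factor receptor recruits the exchange factor Sos1 to the membrane, where it loads Ras proteins such as Nras with GTP. Active Ras brings Raf kinases, among them Braf, to the membrane, Raf phosphorylates the MEK kinases (Map2k1 encodes MEK1), and MEK phosphorylates ERK. Shoc2 forms a complex with the GTPase Mras and a catalytic subunit of protein phosphatase 1 that removes an inhibitory phosphate from Raf. In hippocampal neurons the cascade is known for its part in synaptic plasticity and memory.

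Signals of a HuD pulldown array correlated with those of another HuD array at r between 0.967 and 0.981 across tested probe sets, and with those of IgG arrays at 0.826 to 0.867. The IgG pair was less alike, at 0.936. Of the 3 Elavl4 probe sets measured, all rose in the HuD pulldowns over IgG, and the brightest differed by 1.46 ± 0.26 on the log2 scale (adjusted p = 0.00177). The labels do not say whether the IgG tissue carried the HuD transgene, and the part of transgene RNA in this rise was not tested. Neuronal marker signals, summed over 6 genes, were 13779 to 17701 on the HuD arrays, 9713 to 10912 on the IgG arrays and 9569 in the input. Snap25 made up most of these sums, and the other 5 neuronal markers summed to 1650.2 to 2749 on the HuD arrays, 2773 and 3469.5 on the IgG arrays and 2423 in the input. Summed markers were lower on the HuD arrays for astrocytes (3 genes, 2935 to 3308 on HuD and 7829 to 10272.0 on IgG arrays) and microglia (3 genes, 944 to 1386 and 2060 to 2857). They were lower for interneurons too (3 genes, 2067 to 2724 on HuD and 5163 to 5749.7 on IgG arrays), and overlapped for oligodendrocytes (2 of 3 listed genes measured, 8502 to 12501 and 12046 to 18766). Past the threshold were 2 higher and 1 lower of 6 neuronal markers, 2 lower of 3 interneuron markers and 3 lower of 3 astrocyte markers. Of 2 oligodendrocyte markers 0 passed, and of 3 microglial markers 1 was lower. Of all genes at their brightest tested probe set, 16% were higher than in IgG and 28.2% lower. No marker was at 0, and the part of cell type makeup in the results that follow was not tested.

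Differences are in log2(signal + 32), so they understate changes of dim probe sets. They come from limma, with p-values adjusted by the Benjamini-Hochberg method over 22518 tested probe sets and a threshold of 0.05. Of the 20 probe sets, 12 were bright enough over all arrays to be tested. In 4 of these the mean of the HuD or the IgG arrays alone was under the brightness limit. Braf 1447940_a_at and 1458641_at were over it in HuD only and Braf 1442749_at in IgG only, so they passed through that group. Shoc2 1425845_a_at was under it in IgG but over it in HuD and in the input. Between HuD and IgG pulldowns 5 of the 12 were higher, 1 was lower and 6 did not pass, while 14.7% of all tested probe sets were higher and 26% lower. The genes were chosen with earlier results of these data known, Shoc2 as a leading rise, so these counts are only a description. The probe sets that rose belonged to 4 of the 5 genes: Shoc2, Braf, Sos1 and Map2k1. Between HuD pulldown and input 3 of the 12 were higher, 0 were lower and 9 did not pass, against 9.75% higher and 15.6% lower of all tested. Between IgG pulldown and input 0 of the 12 passed, against 0.235% higher and 0.00444% lower of all tested. An unadjusted p under 0.05 was found for 2 of the 12 and for 2145 of all 22518 tested. The HuD to IgG and HuD to input comparisons share the HuD arrays, and the last compares with a single input array. The median difference of all tested probe sets was −0.26 between HuD and IgG, so a gene at 0 stands above the typical probe set.

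**Figure D1:**
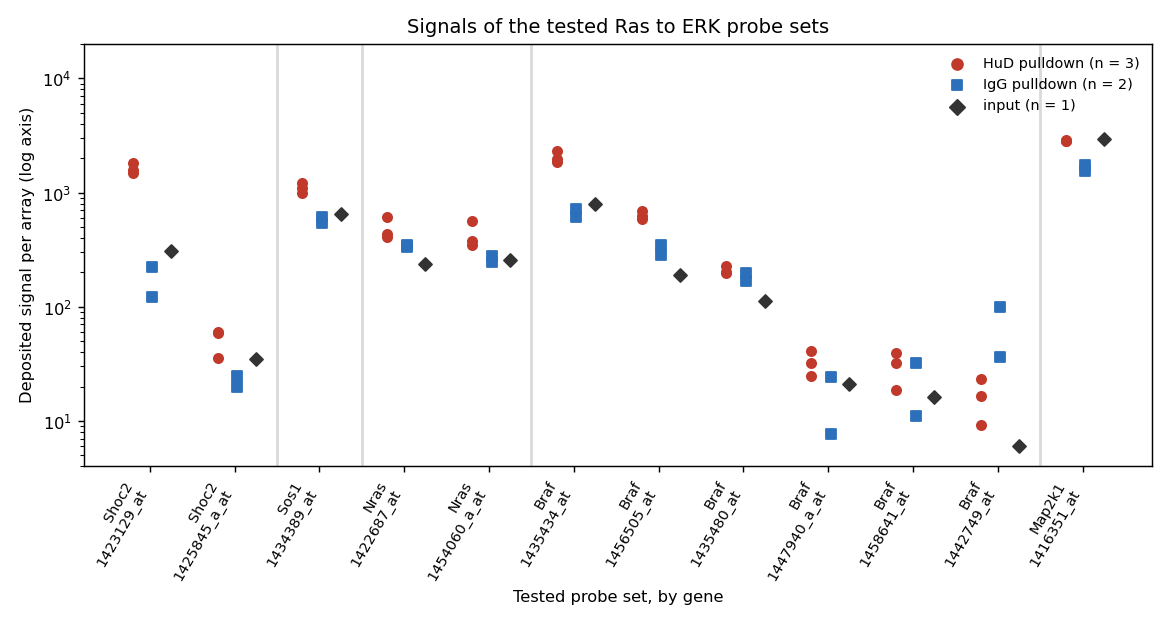
Deposited signal (log axis) of each of the 12 tested probe sets on every array, with circles for the 3 HuD pulldowns, squares for the 2 IgG pulldowns and a diamond for the input. The bright Shoc2 probe set stands out, with all HuD arrays at 1498 or above and both IgG arrays at 223 or below, and HuD and IgG arrays of Nras lie close together.

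Sos1 opens the pathway, exchanging GDP for GTP on Ras. Its bright probe set 1434389_at read 1213, 994 and 1093 on the HuD arrays, 609 and 546 on the IgG arrays and 652 in the input. All 3 HuD arrays were above the input and both IgG arrays. The difference from IgG was 0.89 ± 0.26, or 1.85-fold (adjusted p = 0.0165 by limma), and that from the input was 0.72 ± 0.32, which did not pass (adjusted p = 0.117). The call against IgG was lost without HuD replicate 1 (0.82) or without HuD replicate 3 (0.89). The other 4 Sos1 probe sets were too dim to test, with signals from 0.69 to 40.3. The average over all Sos1 probe sets differed from IgG by 0.05, but the dim ones weigh as much in it as the bright one. It therefore does not bear on the bright probe set alone.

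Nras, the Ras protein measured here, did not pass against IgG at either tested probe set with the main settings. Probe set 1422687_at read 612, 405 and 435 on the HuD arrays, 345 and 334 on the IgG arrays and 235 in the input. Probe set 1454060_a_at read 564, 345 and 379.9 on the HuD arrays, 279 and 247 on the IgG arrays and 257 in the input. At both, all HuD arrays were above both IgG arrays, HuD replicate 1 was the highest, and replicates 2 and 3 lay near the IgG arrays. The differences from IgG were 0.45 ± 0.28 (95% interval −0.15 to 1.05, limma adjusted p = 0.205) and 0.62 ± 0.28 (−0.0009 to 1.24, adjusted p = 0.10), so a rise of 2-fold lies inside both intervals. The first stayed short of the threshold in 17 of 17 other settings and the second in 14 of 15. Against the input the first probe set differed by 0.93 ± 0.35 (adjusted p = 0.0677), a value that passed under quantile normalization (1.13) and 75th percentile centring (1.28), and without either IgG array (0.93 in both). In 10 of 15 other settings the first probe set stayed short of the threshold against the input. The second differed from the input by 0.65 ± 0.36 (limma adjusted p = 0.201), and the third Nras probe set was too dim to test (10.8 to 35.6).

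Shoc2 showed the largest difference of the 5 genes. Its probe set 1423129_at read 1566, 1498 and 1811 on the HuD arrays (mean 1625 ± 164 SD, n = 3), 121 and 223 on the IgG arrays (mean 172 ± 72.6 SD, n = 2) and 306 in the input. The lowest HuD array was several times the highest of the other arrays, and the groups were far from overlapping. The difference from IgG was 3.06 ± 0.29 (95% interval 2.43 to 3.70, limma adjusted p = 0.000156), or 8.36-fold, which ranked 8 among 22518 tested probe sets. Against the input it was 2.29 ± 0.37, or 4.88-fold (adjusted p = 0.00334), and the IgG arrays were lower than the input by a margin that did not pass (−0.78 ± 0.39, adjusted p = 0.564). Among arrays whose titles share an ending, the HuD to IgG difference was 3.39 (HuD 1 and IgG 1) and 2.72 (HuD 2 and 3 and IgG 2).

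The other Shoc2 probe set, 1425845_a_at, was dim: 35.7, 60.3 and 58.4 on the HuD arrays, 24.7 and 19.8 on the IgG arrays and 34.7 in the input. All HuD arrays were above the IgG arrays, and HuD replicate 1 lay close to the input. The difference from IgG was 0.61 ± 0.25 (adjusted p = 0.065), which passed under 3 other scalings of the arrays, with values from 0.76 to 0.93. Averaged over both probe sets, Shoc2 was higher than in IgG by 1.84 (limma adjusted p = 0.00191).

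Partners of Shoc2 differed among themselves. Mras, the GTPase of the Shoc2 complex, read 156, 191 and 216 on the HuD arrays, 234 and 159 on the IgG arrays and 210.2 in the input, and HuD and IgG arrays overlapped (−0.05 ± 0.28, adjusted p = 0.907). The 3 genes for catalytic subunits of protein phosphatase 1 divided. Ppp1cb read 4925, 5802 and 4982 on the HuD arrays, 1999.8 and 2209 on the IgG arrays and 1531 in the input, a rise over IgG of 1.30 ± 0.24 (adjusted p = 0.00194), and 3 of its 4 probe sets passed. Ppp1ca was lower, at 546, 817 and 422 on the HuD arrays, 1389 and 1292 on the IgG arrays and 1542 in the input (−1.18 ± 0.30, adjusted p = 0.0095, lost without HuD replicate 3, −0.97). Ppp1cc read 5207 to 6553 on the HuD arrays and 4633 and 7547 on the IgG arrays, overlapping (−0.03 ± 0.26, adjusted p = 0.936).

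Braf, the Raf kinase on the list, had 9 probe sets, of which 6 were tested, with differing results. The brightest, 1435434_at, read 2292, 1977 and 1836 on the HuD arrays, 714 and 615 on the IgG arrays and 787 in the input. All HuD arrays were well above every other array, and the difference from IgG was 1.57 ± 0.25, or 2.96-fold (limma adjusted p = 0.0011). Against the input it was 1.33 ± 0.32 (adjusted p = 0.0132), and IgG and input differed by −0.24 ± 0.34.

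Braf probe set 1456505_at also rose. It read 621, 584 and 684 on the HuD arrays, 282 and 349 on the IgG arrays and 189 in the input, so the input was the lowest array. The difference was 0.93 ± 0.26 from IgG (limma adjusted p = 0.0145) and 1.58 ± 0.33 from the input (adjusted p = 0.00744). The call against IgG was lost without HuD replicate 1 (0.94), HuD replicate 3 (0.87) or IgG replicate 1 (0.79).

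Braf probe set 1442749_at was called lower, at low signals: 16.5, 23.3 and 9.19 on the HuD arrays, 99.1 and 36.3 on the IgG arrays and 6.08 in the input. The IgG arrays alone were high, and the HuD arrays were near the input. It entered the test only through the IgG arrays, a selection that favours a lower HuD value, so its call is given as a description. The difference from IgG was −0.98 ± 0.29 (limma adjusted p = 0.0195), and it shrank to −0.51 and did not pass without IgG replicate 1. It was lost as well without HuD replicate 1 (−0.99) or HuD replicate 3 (−0.87), under 75th percentile centring (−0.66), and with no filter on low signals. The IgG to input difference of 1.31 ± 0.39 was 1 of the 2 with an unadjusted p under 0.05 and had an adjusted p of 0.245.

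The remaining tested Braf probe sets did not pass in any comparison with the main settings. Probe set 1435480_at read 197, 202 and 227 on the HuD arrays, 196 and 167 on the IgG arrays and 111 in the input. It differed from IgG by 0.18 ± 0.25 and from the input by 0.75 ± 0.32 (limma adjusted p = 0.106). The latter stayed short of the threshold in 11 of 13 other settings. Probe sets 1447940_a_at and 1458641_at were dim, between 7.70 and 40.6, and differed from IgG by 0.44 and 0.22. The first of these stayed short of the threshold in 14 of 15 other settings. The mean over all 9 Braf probe sets, in which those too dim to test weigh equally, differed from IgG by 0.13 (limma adjusted p = 0.501). The rise of Braf is that of its brightest probe sets and not of all.

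Map2k1, which encodes MEK1, was higher than in IgG but not higher than in the input. Its single probe set, 1416351_at, read 2816, 2879.99 and 2809.9 on the HuD arrays, 1548 and 1747 on the IgG arrays and 2959 in the input. The HuD arrays lay within a narrow range just under the input, and both IgG arrays were below it. The difference between HuD and IgG was 0.77 ± 0.24, or 1.71-fold (limma adjusted p = 0.0225), between HuD and input −0.06 ± 0.30 (adjusted p = 0.897), and between IgG and input −0.84 ± 0.32 (adjusted p = 0.407, unadjusted p under 0.05). Leaving out any 1 HuD array ended the HuD to IgG call (0.76 to 0.78), as did leaving out IgG replicate 1 (0.69), quantile normalization (0.53) and testing without the filter on low signals (0.77). The sign of the small HuD to input difference depended on scaling, with a range of −0.41 to 0.29 over all settings.

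**Figure D2:**
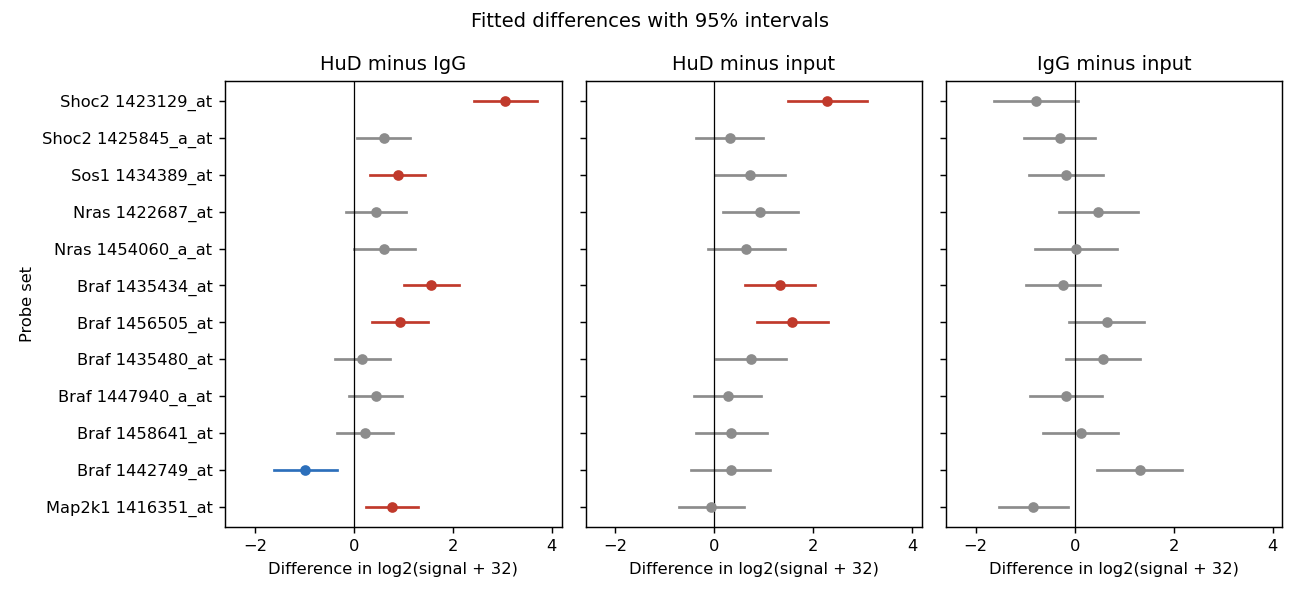
Fitted differences in log2(signal + 32) with 95% intervals for the 12 tested probe sets, in panels for HuD minus IgG, HuD minus input and IgG minus input. Red marks calls higher, blue lower and grey those that did not pass: Map2k1 is red in the first panel, at 0.77, and near 0 in the second.

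Close relatives of these genes had other values on the same arrays. Sos2, the other Sos exchange factor, read 239, 173 and 205 on the HuD arrays, 487 and 528 on the IgG arrays and 414 in the input, and was lower in the HuD pulldowns by −1.19 ± 0.26 (limma adjusted p = 0.0047). The log2 difference between Sos1 and Sos2 within an array was 2.20 to 2.32 on the HuD arrays, 0.30 and 0.05 on the IgG arrays and 0.62 in the input. Probe sets differ in brightness, so only the change of such a difference between arrays can be read. For Sos1 and Sos2 this change was 2.08 from IgG to HuD.

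Map2k2, which encodes MEK2, read 111, 167 and 88.3 on the HuD arrays, 296 and 235 on the IgG arrays and 287 in the input. It was lower than in IgG by −0.97 ± 0.29 (limma adjusted p = 0.0193), a call that was lost under quantile normalization (−0.73) and 75th percentile centring (−0.66), with no filter (−0.97), and without HuD replicate 1 (−0.94), HuD replicate 3 (−0.81) or IgG replicate 1 (−0.83). The within-array difference between Map2k1 and Map2k2 was 3.87 to 4.56 on the HuD arrays, 2.27 and 2.73 on the IgG arrays and 3.23 in the input. That between Ppp1cb and Ppp1ca was 2.78 to 3.46 on the HuD arrays, 0.52 and 0.76 on the IgG arrays and −0.01 in the input. In these pairs and in Sos1 with Sos2, the HuD arrays did not overlap the others, but the pairs were chosen after their values were seen and were not tested.

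Araf, another Raf kinase, read 759, 852 and 868 on the HuD arrays, 382 and 799 on the IgG arrays and 601 in the input, with a difference from IgG that did not pass (0.55 ± 0.31, limma adjusted p = 0.180). Braf minus Araf within an array was 1.56, 1.18 and 1.05 on the HuD arrays, 0.85 and −0.36 on the IgG arrays and 0.37 in the input. The change from IgG to HuD was 1.02, with a two-sided exact permutation p of 0.1, the smallest that the 10 arrangements of 3 and 2 arrays allow. It was 0.41 without IgG replicate 2, 1.63 without IgG replicate 1 and −0.044 with probe sets averaged, so its size depended on which IgG array and which probe sets were used.

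**Figure D3:**
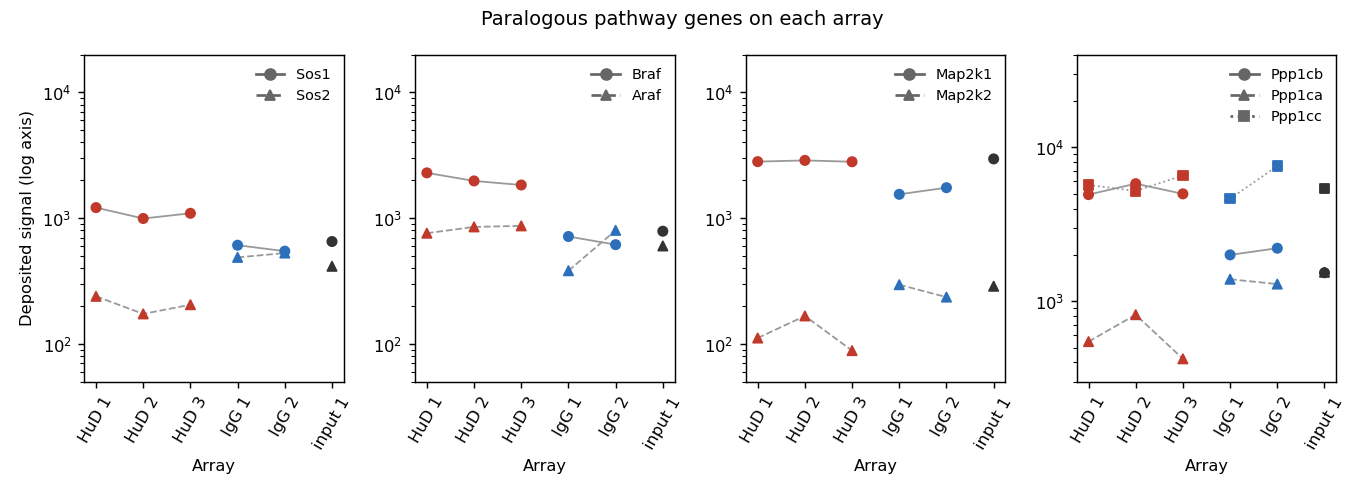
Deposited signals (log axis) of related genes on each of the 6 arrays, coloured by group (red HuD, blue IgG, black input), with marker shape and line style for the gene. Sos1, Map2k1 and Ppp1cb are higher on HuD than on IgG arrays while Sos2, Map2k2 and Ppp1ca are lower, and Araf and Ppp1cc overlap between groups.

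The other genes of the pathway were taken from lists grouped by role, each gene at its brightest tested probe set. Of 102 listed genes 93 had a named probe set and 83 were tested, and between HuD and IgG 21 were higher, 20 lower and 42 did not pass, while 16% of all 11957 genes so tested were higher and 28.2% lower. Their median difference was 0.03, against −0.29 over all genes. The lists too were chosen with earlier results of these data known, so their counts beside these shares are only a description. Leaving out HuD replicate 1 gave 14 higher and 9 lower, and under 75th percentile centring 27 were higher and 10 lower. Against the input 10 were higher and 11 lower, with 10.6% and 18.5% of all genes. Of receptors and adaptors 1 of 18 was higher than the input, and of Ras family GTPases 0 of 7. Among genes named below, Fgfr2, Ntrk3, Spred2, Rit2, Rap1b, Rras2 and Elk4, called higher than IgG, did not pass against the input. Sos2, Rasal1, Rit1, Rce1, Cnksr3 and Lamtor2, called lower than IgG, did not pass against the input either. Of the 37 called list genes named here, counting those of the JNK and p38 comparison list described below, 24 had another tested probe set. All others were called the same way in 5, at least 1 did not pass in 18, and 1, Ntrk3, had a probe set called the opposite way. Over all settings the count of exchange factors lower ran from 2 to 3 of 6, of lipid modification genes lower from 1 to 3 of 4, of MEK, ERK and scaffold genes lower from 2 to 4 of 6, and of feedback genes higher from 3 to 5 of 9.

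Among receptors and adaptors, which stand above Sos1, 6 of 18 were higher and 3 lower than in IgG, with a median of 0.22. Over all genes 16% were higher and 28.2% lower. The fibroblast growth factor receptor gene Fgfr2 differed by 1.48, the adaptor gene Frs3 by 1.34 and the neurotrophin receptor gene Ntrk3 by 1.17, though another Ntrk3 probe set, 1447723_at, was lower (−0.94, limma adjusted p = 0.0159), while the platelet-derived growth factor receptor gene Pdgfrb differed by −1.82. Of the exchange factors other than Sos1, 0 of 6 were higher and 3 were lower, with a median of −0.70. These were Rasgrf1 (−1.60), Sos2 and Rasgrp1 (−0.86, lost in 5 settings, among them without HuD replicate 1, −0.91, or HuD replicate 3, −0.70). Rasgrf1 read 1158 to 1520.2 on the HuD and 3922 and 4486 on the IgG arrays. Sos1 was thus the exchange factor on these lists with a call in the other direction.

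Genes that restrain Ras rose in part. Of GTPase-activating proteins and the Raf inhibitors of the Spred family, 4 of 10 were higher and 2 lower, with a median of 0.52. Over all genes 16% were higher and 28.2% lower. Rasal2, which speeds GTP hydrolysis by Ras, read 1547, 1463 and 1585 on the HuD arrays, 195 and 221 on the IgG arrays and 379 in the input (2.70 ± 0.25, limma adjusted p = 0.000156), while its other tested probe set, 1436910_at, overlapped between groups (0.07, adjusted p = 0.891). Spred1 differed by 1.68 and Spred2 by 1.57, while Rasal1 differed by −1.09, a call lost without HuD replicate 1 (−0.96) or IgG replicate 1 (−0.69). Of the feedback phosphatases and Sprouty proteins that dampen ERK signalling, 4 of 9 were higher and 0 lower, with a median of 0.76. Spry2 differed by 1.93, Dusp7 by 1.49, Dusp1, which read 2482 to 2961 on the HuD and 977 and 1044 on the IgG arrays, by 1.36, and Spry3 by 0.97. All 4 were higher than in the input too, and the call of Spry3 against IgG was lost without HuD replicate 1 (0.95).

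Of the Ras family GTPases besides Nras, 3 of 7 were higher and 1 lower, against 16% and 28.2% of all genes. The neuronal GTPase gene Rit2 differed by 1.14 and Rap1b by 1.11, which held in all settings, while Rras2 (1.09, but 0.64 and not past without IgG replicate 1) and Rit1 (−0.76) lost their calls in several. The median of the list was −0.04 and changed sign with scaling, reaching 0.28 under 75th percentile centring. Of the genes for lipid modification of Ras, 0 of 4 were higher and 3 lower: Fnta, the farnesyltransferase alpha subunit (−1.29), the protease gene Rce1 (−1.14) and Fntb, the beta subunit (−0.92). The last 2 lost their calls in some settings, Rce1 for instance without HuD replicate 3 (−0.88) and Fntb under quantile normalization (−0.67).

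Of the Raf kinases, Shoc2 partners and Raf regulators, 1 of 12 was higher, Ppp1cb, against 16% of all genes. Lower were 4, against 28.2% of all genes, and the median was −0.40. Among the lower were Lztr1, an adaptor in Ras degradation (−2.01), and Cnksr3 (−0.84), whose call was lost in 7 settings. Of MEK, ERK and scaffold genes besides Map2k1, 0 of 6 were higher and 4 lower, with a median of −0.95. These were Map2k5 (−1.48), which encodes the MEK of another ERK, the scaffold gene Lamtor2 (−1.43), Map2k2 and Pea15a (−0.93), which encodes an ERK-binding protein and lost its call in 5 settings. Map2k1 was above IgG, a call lost in several settings, while these 4 were lower. Lamtor3, a scaffold gene of this tier that did not pass, differed by 0.63, with all HuD arrays above both IgG arrays. Under 75th percentile centring 1 of the 6 was called higher.

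Of the substrates of ERK, 3 of 11 were higher and 0 lower, with a median of 0.12. The transcription factor gene Ets2 read 2415, 2074 and 1845 on the HuD arrays, 539.998 and 372 on the IgG arrays and 660.02 in the input (2.15 ± 0.27, limma adjusted p = 0.000374). Elk4 (0.92) and Creb1 (0.82) were also higher, and each lost its call without HuD replicate 1 (0.95 and 0.78), HuD replicate 3 (0.94 and 0.83) or IgG replicate 2 (0.63 and 0.69), Elk4 also without HuD replicate 2 (0.88), and Creb1 also under quantile normalization (0.63). In the neighbouring JNK and p38 kinase modules, kept as a comparison, 3 of 20 genes were higher and 4 lower, against 16% and 28.2% of all genes. The median of these modules, −0.20, turned to 0.12 under 75th percentile centring. There the JNK1 gene Mapk8 was higher (2.02), and Map3k4 (−2.15) and the JNK scaffold genes Mapk8ip3 (−1.97) and Mapk8ip2 (−1.41) were lower.

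**Figure D4:**
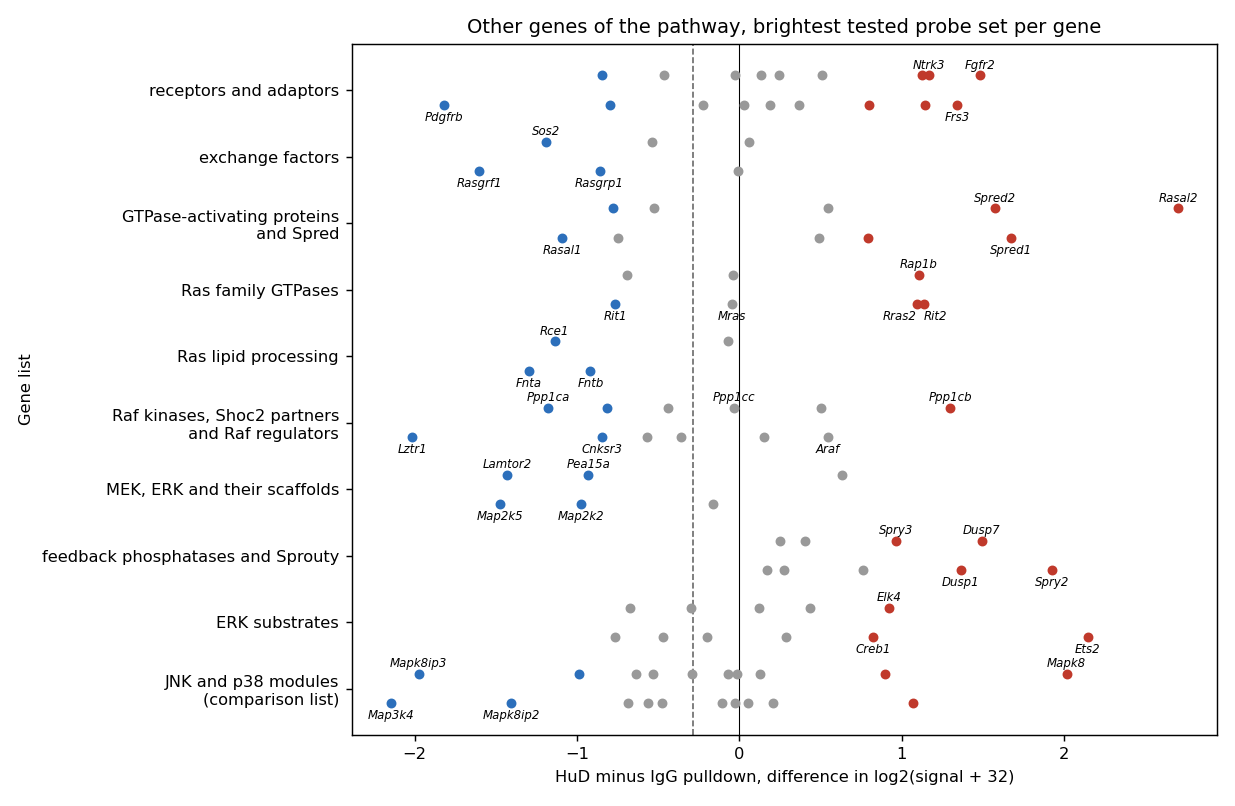
HuD minus IgG difference in log2(signal + 32) of the tested genes of each list, at the brightest tested probe set, in red where called higher, blue where lower and grey where neither. The dashed line is the median of all genes (−0.29). The feedback and ERK substrate lists have no blue point, and the exchange factor, lipid processing and MEK, ERK and scaffold lists have no red one.

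The genes with the most similar profiles were found by the root mean square difference in centred log2 signal over the 6 arrays, among 11956 genes. Shoc2 was closest to Ptbp2, which encodes a neuronal splicing regulator (0.147), then Tram1 (0.156) and Atad1 (0.188). Braf was closest to Ythdf3, which encodes a reader of methylated adenosine in RNA (0.0678), Fitm2 (0.0805) and Nrip1 (0.094). Sos1 was closest to Rabgap1 (0.05), Lmtk2 (0.0565) and Snap91 (0.0572). Map2k1 was closest to Ybx1, the gene of an RNA-binding protein (0.0581), Trmt2b (0.102) and Rgs7 (0.106), and Nras to Acvr1c (0.0957), Col19a1 (0.128) and Gabpb1 (0.137). These distances describe likeness over 6 arrays and were not tested.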

How the data were processed

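The data were 6 one-colour arrays. The deposited values are intensities on a linear scale, 1 per probe set; which software made them is not given in the sources used here. A mean without the lowest and highest 2% was 150.001 on all arrays, so the deposited intensities had been scaled to a common level. No detection calls were in the table used. Of 45101 probe sets, 64 array controls were left out, and a platform annotation gave 34958 of all probe sets 1 gene symbol and 932 several, while 9160 of those that are not controls had none. All 20 identifiers of the probe sets described matched a RefSeq gene table, used for names only, and no sequence is shown because probe and transcript sequences were not analysed here.

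Probe sets in the upper part of mean log2 signal, split at the median (a signal of about 22.9), were tested as log2(signal + 32) with limma 3.58.1 in R 4.3.3, with 1 mean per group over all 6 arrays and eBayes with a trend (3 residual and 9.1 prior degrees of freedom). The single input array was assumed to vary like the pulldowns. The SD of log2 differences was 0.600 in the IgG pair and 0.348 to 0.458 in HuD pairs, so pooled errors may understate the IgG spread. The number of arrays limits the precision. Errors after ± are standard errors unless SD is named.

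The genes described and the lists were chosen with earlier results of these data known, and Shoc2 was already known as a leading rise. Named are every probe set of the 7 genes, up to 4 called genes per list with the largest difference, fixed relatives (Sos2, Araf, Map2k2, Mras, the Ppp1c genes, Elavl4), and the 3 nearest profiles per gene. Lamtor3 was named in addition, after its values were seen. The alternatives were pseudocounts of 16 and 64, no filter, quantile, 75th percentile and median scaling, no trend, averaged or brightest probe sets, blocks by title and leaving out each array. Replicate numbers are by accession order and serve as names. List genes without a probe set of their own in the annotation are not analysed here.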

Additional observations from a re-analysis of the deposited data

How the results depend on the processing

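Over all settings, the results of the 12 tested probe sets kept direction where called and kept their side of the threshold in 488 cases, gained a call in 14 and lost one in 20. The bright Shoc2 probe set kept its HuD to IgG call in all 17 settings (1.84 to 3.44), and the brightest Braf probe set in 16. The other setting averaged all Braf probe sets, dim ones included (0.13), and so did not measure the brightest alone. Of the 12 probe sets, 6 were called between HuD and IgG, and 2 to 6 when 1 array was left out; between HuD and input 3 were called, 2 to 4 with 1 array left out, 5 with quantile normalization and 6 with 75th percentile centring; between IgG and input 0 were called, and 0 to 1 with 1 array left out (Braf 1442749_at, 1.78 without IgG replicate 2). Over all probe sets, 9170 were called between HuD and IgG (5493 to 9285 with 1 array left out). Between HuD and input 5711 were called, 2669 with no filter and 2551 to 8274 with 1 array left out. Between IgG and input 54 were called, 30 with a pseudocount of 64, 0 with no filter, 23 with quantile normalization, 105 with 75th percentile centring, 11 with median centring and 0 to 588 with 1 array left out. The share of HuD to IgG calls that were higher was 36.1%, 51.5% with quantile normalization, 63.2% with 75th percentile centring and 48.5% with median centring, and the median difference moved from −0.26 to −0.05, 0.06 and −0.11. The Braf to Araf change of 1.02 was −0.044 with averaged probe sets and 0.41 to 1.63 with 1 array left out. The planned within-array comparisons that needed Hras or Mapk3 were not run. Averaged and brightest probe sets gave values per gene only, with no count of probe sets. Counts of list genes under other settings were added after seeing the data.

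Deviations of HuD and IgG arrays that share a title ending correlated at −0.04, −0.30 and 0.31. The last value was that of HuD 3 and IgG 2, whose titles also share a number. With so few arrays these values depend on each other and cannot decide whether arrays were paired. With the title ending as a replicate block, 6 of the 12 probe sets were called between HuD and IgG, and over all probe sets 8613 were called there, 3702 between HuD and input and 0 between IgG and input. With the title number as a replicate block 10826 were called between HuD and IgG, 6 of them among the 12.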
